A study of Sus scrofa with 9 samples.

Results

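The 42 genes described here stood above the GFP control in pig myoblasts that expressed human DUX4 and below the same control in myoblasts that expressed pig DUXC. They were picked from the 27339 genes of the count table by their group means in CPM, which are the counts of a gene scaled to the total count of its library. A gene was taken when its mean with DUX4 was at least 1 CPM and at least 2-fold the GFP mean, when its mean with DUXC was at most 0.5 of the GFP mean, and when no library of either transgene overlapped a GFP library. The DUX4, DUXC and GFP values of these 42 genes therefore chose them. They are given as a description, with no test.

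DUX4 is a double homeobox transcription factor that is active in the early human embryo, and its activity in skeletal muscle causes facioscapulohumeral muscular dystrophy. DUXC is a related double homeobox gene that pigs carry and humans lack. The homeodomains of such factors bind DNA, and DUX4 is known as a strong activator of transcription. In human muscle cells DUX4 switches on genes of the cleavage-stage embryo.

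The series holds 9 RNA-seq libraries from primary myoblasts of Göttingen minipigs, grown to passages 7 to 9. Cells of 3 libraries carried a human DUX4 transgene, cells of 3 a pig DUXC transgene and cells of 3 a GFP transgene, each induced by doxycycline at 1 µg/mL for 16 h, so the control also received the drug. The promoter, the copy number and whether a line was a pool or a clone were not given in the sources used here. Nor is it stated that replicate libraries are separate cultures, so a p-value below reflects the variation among these libraries alone, possibly technical. A DUX4 library held 39842081 to 44420895 counts, a DUXC library 36580573 to 38971217 and a GFP library 39979602 to 42362395.

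No row of the count table carries the name of a transgene, so the transgenes were not measured and group identity comes from the labels alone. The myoblast label was set against markers. MYOD1, which commits cells to the muscle lineage, had 9 counts over the DUX4 libraries, 4 over the DUXC libraries and 1 over the GFP libraries, and the 31 myogenic regulator and satellite cell genes had a median of 1.93 CPM with DUX4, 4.28 CPM with DUXC and 0.714 CPM with GFP. The 26 fibroblast and matrix genes had medians of 271 CPM with DUX4, 471 CPM with DUXC and 429 CPM with GFP. MYF5, another determination factor of muscle, had 267 counts with DUX4, 211 with DUXC and 84 with GFP, and rose by 1.61 with DUX4 and 1.33 with DUXC on the log2 scale (adjusted p = 2.79e-09 and 3.21e-07 in edgeR's quasi-likelihood test across all tested genes). PAX7, the satellite cell factor, had 70 counts with DUX4, 134 with DUXC and 48 with GFP. It rose by 1.47 with DUXC (edgeR adjusted p = 2.13e-06) and had a log2 fold change of 0.49 with DUX4 (edgeR adjusted p = 0.153). In bulk RNA, fewer cells of a type and less RNA per cell cannot be told apart, and the part of cell composition in the values below was not tested.

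Of all 27339 genes, 1020 (3.73%) met the DUX4 side of the rule and 1004 (3.67%) met the DUXC side, and 42 (0.154%) met the whole rule. Among the 12413 genes with at least 1 CPM with DUX4, these sides were met by 1020 (8.22%) and 695 (5.6%). Among the 42 genes, 41 are protein coding and LOC100737961 is a long noncoding RNA, 38 carry a symbol of their own, and all passed the filter on low counts. Positions below are RefSeq gene spans in Sscrofa11.1. The 40 genes with such a position lie on 17 chromosomes, and HMOX1 and RASD2 have none on an assembled chromosome. CTH, SLC1A6, ARAP3, TMEM200C, HAND1, P2RY6, NKAIN3, FAM25A, LOC100153139 and LOC106504372 overlap the span of another annotated gene, so their counts may hold its reads. The ratio of the DUX4 mean to the GFP mean ranged from 2.01 for TMEM200C to 15.0 for HAND1, with a median of 3.12. The GFP mean exceeded the DUXC mean by 2.02-fold for LOC100153139 up to 14.0-fold for CASP14, with a median of 2.48. Of the genes, 23 of 42 were at least 3-fold above GFP with DUX4, and 12 of 42 were at least 3-fold below GFP with DUXC. The rule sets a minimum level with DUX4 alone, and the ratios depend on the scaling, so the sides are not compared. The DUX4 and DUXC means lay 4.30-fold apart for CUBN and 90.5-fold apart for HAND1, and 25 genes differed by at least 8-fold between the transgenes.

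**Figure D1:**
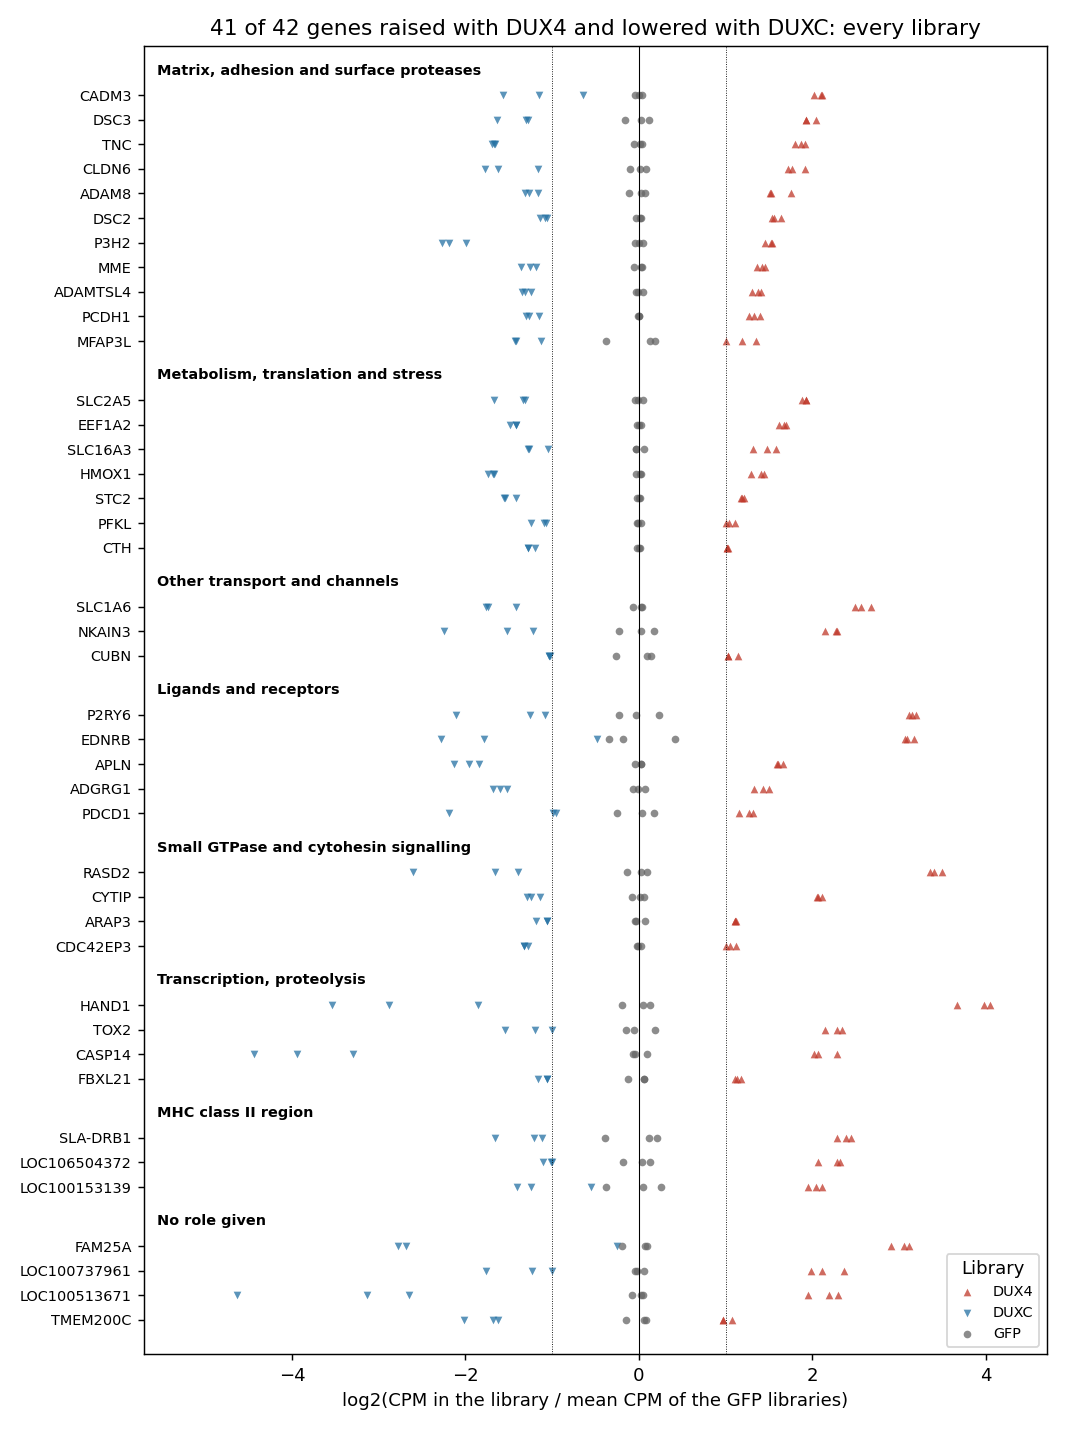
CPM of 41 of the 42 genes in every library, divided by the mean of the GFP libraries, on a log2 axis, with genes grouped by role; upward triangles are DUX4 libraries, downward triangles DUXC libraries and circles GFP libraries, and the dotted lines mark 2-fold. All DUX4 points lie right of the GFP points and all DUXC points left of them, as the rule requires, and the spread between DUXC libraries is widest for scarce genes such as FAM25A and EDNRB.

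The genes differed widely in abundance. Together they took 1.497 ± 0.0316% of all counts with DUX4, 0.148 ± 0.00124% with DUXC and 0.453 ± 0.00943% with GFP (SD, n = 3 each). TNC alone held 1.10 ± 0.0436% of counts with DUX4, 0.0949 ± 0.00147% with DUXC and 0.302 ± 0.00972% with GFP. A further 0.199 ± 0.0113% with DUX4, 0.0236 ± 0.000585% with DUXC and 0.0762 ± 0.00181% with GFP belonged to HMOX1. Most of the reads of the set therefore came from these 2 genes, and the other 40 shared 0.196 ± 0.00258% with DUX4, 0.0300 ± 0.000477% with DUXC and 0.0746 ± 0.000662% with GFP. With DUX4, 9 genes had at least 100 CPM, 19 had 10 to 100 CPM and 14 had less. Below 1 CPM lay 16 genes with DUXC and 7 with GFP. Of those 16, the counts over the DUXC libraries ran from 8 for LOC100513671 to 112 for LOC106504372, so a few counts decide the value of only the scarcest.

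Some genes lay close to a threshold. On the minimum level with DUX4, PDCD1 at 1.39 CPM and FAM25A at 2.86 CPM were the nearest inside, and SNAP91 at 0.950 CPM and SMIM5 at 0.854 CPM the nearest outside. For the ratio of DUX4 to GFP, TMEM200C at 2.01 and CTH at 2.03 were just inside, and SOX9 at 1.98 and the glycolytic gene ENO1 at 1.96 just outside. For the ratio of DUXC to GFP, LOC100153139 at 0.494 and CUBN at 0.488 were just inside, and TNNT1 at 0.502 and SH3BGRL2 at 0.505 just outside.

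The library that was highest in its group varied from gene to gene. Within the DUX4 group, the highest value of a gene was in library 1 for 13 genes, in library 2 for 16 and in library 3 for 13. In the DUXC group it was library 1 for 15 genes, library 2 for 14 and library 3 for 13, and in the GFP group library 1 for 14, library 2 for 16 and library 3 for 12. The coefficient of variation within a group had a median of 4.51% with DUX4, 10.4% with DUXC and 4.94% with GFP, and reached 105% for FAM25A with DUXC.

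Roles were assigned to the genes from general knowledge after the set was known. The largest role group holds 11 genes of the extracellular matrix, of cell adhesion and of proteolysis at the cell surface, with DUX4 means 2.28 to 4.23 times the GFP means and DUXC means 2.10- to 4.43-fold below them. TNC encodes tenascin-C, a large matrix glycoprotein that modulates cell attachment and is induced in wounds and embryonic tissue (chr1:255533235-255630381). It had 10573, 11061 and 11443 CPM with DUX4, 960.4, 932 and 954 CPM with DUXC and 3048, 2918 and 3109 CPM with GFP. The DUX4 mean was 3.64 times the GFP mean and the DUXC mean 3.19-fold below it, and the libraries of each group lay close together.

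Other tenascins were looked up for comparison, after the values of the set had been seen. TNN, tenascin-N, averaged 185 ± 16.2 CPM with DUX4, 34.03 ± 1.56 CPM with DUXC and 52.3 ± 0.765 CPM with GFP (SD, n = 3 each). It rose with DUX4 by 1.80 ± 0.051 (SE) on the log2 scale and fell by 0.75 ± 0.057 (SE) with DUXC, with adjusted p of 1.52e-16 and 5.03e-10 in edgeR's two-sided quasi-likelihood test with Benjamini-Hochberg adjustment over 15956 genes. In that test 32.9% of all tested genes were higher and 31.9% lower with DUX4, and 40.2% were higher and 42.3% lower with DUXC, so a call by itself is common. The test scales libraries by TMM factors, which are not applied to the CPM values. TNXB, tenascin-X, fell with both transgenes, with log2 fold changes of -0.98 with DUX4 (edgeR adjusted p = 5.39e-19) and -0.81 with DUXC (edgeR adjusted p = 7.63e-17). TNR, tenascin-R, had 45 counts with DUX4, 47 with DUXC and 0 with GFP, and was called higher with both (edgeR adjusted p = 4.78e-08 with DUX4 and 1.17e-08 with DUXC).

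Further genes of this group act in the matrix, on its collagens or as peptidases. ADAMTSL4, a secreted protein linked to microfibrils (chr4:98577813-98589255), had 158, 164 and 169 CPM with DUX4, 25.6, 26.9 and 25.0 CPM with DUXC and 62.1, 63.0 and 65.8 CPM with GFP. MME, the membrane peptidase neprilysin (chr13:95018395-95122977), had 151, 142 and 147 CPM with DUX4, 23.2, 21.5 and 24.3 CPM with DUXC and 56.1, 56.5 and 53.1 CPM with GFP. The DUX4 mean was 2.57 times the GFP mean for ADAMTSL4 and 2.66 times for MME, and the DUXC mean lay 2.46-fold below for ADAMTSL4 and 2.40-fold below for MME.

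P3H2, a prolyl 3-hydroxylase that modifies collagen (chr13:127414955-127572165), had 28.1, 26.7 and 28.0 CPM with DUX4, 2.02, 2.13 and 2.44 CPM with DUXC and 10.03, 9.43 and 9.73 CPM with GFP. Its DUXC mean was 4.43-fold below the GFP mean, among the deepest of the set, and its DUX4 mean 2.84 times the GFP mean. Of the related hydroxylase genes, P3H1 fell by 0.85 and P3H3 fell by 1.05 on the log2 scale with DUXC (edgeR adjusted p = 9.04e-24 and 4.56e-30). With DUX4, P3H1 had a log2 fold change of 0.00 (edgeR adjusted p = 0.962).

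Desmosomal cadherins join neighbouring cells in epithelia and heart, and the set holds DSC2 and DSC3, which are neighbours on chromosome 6. DSC2 had 60.3, 56.0 and 57.1 CPM with DUX4, 9.10, 8.75 and 9.26 CPM with DUXC and 19.7, 19.4 and 18.8 CPM with GFP. DSC3 had 17.2, 15.8 and 15.8 CPM with DUX4, 1.72, 1.69 and 1.34 CPM with DUXC and 4.53, 3.73 and 4.26 CPM with GFP. The DUX4 mean of DSC2 was 2.99 times and that of DSC3 3.91 times the GFP mean, and their DUXC means were 2.14-fold and 2.63-fold below it. Within each group the libraries of both genes lay close together.

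Several partners of these cadherins in the desmosome had few counts. The desmogleins DSG1 and DSG3 had 0 and 1 counts over the DUX4 libraries, 3 and 3 over the DUXC libraries and 0 and 1 over the GFP libraries, and DSG4 and DSC1 had no count in any library, which allows up to 0.0239 CPM with DUX4, 0.0266 CPM with DUXC and 0.0244 CPM with GFP at 3 counts over a group, for counting error only. DSG2 had 33 counts with DUX4, 20 with DUXC and 19 with GFP, and desmoplakin (DSP), which anchors the desmosome to keratins, had 13 counts with DUX4, 55 with DUXC and 11 with GFP. DSP rose with DUXC by 2.28 on the log2 scale (edgeR adjusted p = 2.03e-05). Plakoglobin (JUP), which also serves other junctions, stood at 103 ± 8.62 CPM with DUX4, 125 ± 3.04 CPM with DUXC and 121 ± 1.42 CPM with GFP. It fell by 0.26 on the log2 scale with DUX4 (edgeR adjusted p = 5.94e-06). Plakophilin 2 (PKP2) had 10.3 ± 0.319 CPM with DUX4, 7.90 ± 0.565 CPM with DUXC and 10.2 ± 0.328 CPM with GFP. It fell by 0.49 on the log2 scale with DUXC (edgeR adjusted p = 1.85e-07), and with DUX4 its log2 fold change was -0.01 (edgeR adjusted p = 0.909). Plakophilin 1 (PKP1) had 16 counts with DUX4, 52 with DUXC and 2 with GFP, and was called higher with both (edgeR adjusted p = 0.00623 with DUX4 and 5.96e-08 with DUXC).

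Among 26 epithelial and epidermal markers, DSC2, DSC3 and CASP14 belong to the set. The summed level of the 26 was 99.8 to 105 CPM with DUX4, 26.8 to 28.1 CPM with DUXC and 42.9 to 45.8 CPM with GFP. Without the 3 genes it was 17.8 to 18.2 CPM with DUX4, 15.9 to 17.5 CPM with DUXC and 17.4 to 20.4 CPM with GFP, so the difference in the sum lay in these 3 genes. EPCAM, a marker of simple epithelia, had 0 counts with DUX4, 5 with DUXC and 0 with GFP, and the basal keratin KRT5 had 1 with DUX4, 4 with DUXC and 0 with GFP. Of the 16 other tested markers of the list, 8 were called higher and 5 lower with DUXC, with CLDN4 among the lower. The genes named next were among the higher. The keratin KRT8 had 1 count with DUX4, 91 with DUXC and 0 with GFP (edgeR adjusted p = 1.04e-11 for DUXC), and the epithelial transcription factor GRHL2 had 0 counts with DUX4, 70 with DUXC and 0 with GFP (edgeR adjusted p = 2.29e-10 for DUXC). E-cadherin (CDH1) had 12 counts with DUX4, 62 with DUXC and 2 with GFP, with adjusted p in edgeR of 0.0410 for DUX4 and 3.90e-08 for DUXC. The DUX4 call of CDH1 was lost with DESeq2 (0.0538) and when DUX4 replicate 2 (0.221), DUX4 replicate 3 (0.0724), GFP replicate 1 (0.149) or GFP replicate 3 (0.133) was left out. Of the list, 3 markers with DUX4, 1 with DUXC and 8 with GFP were listed at 0.

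The other adhesion and surface genes were described by their means. ADAM8, a membrane metalloprotease of leukocytes and bone cells, had 33.0 ± 3.24 CPM with DUX4, 4.57 ± 0.235 CPM with DUXC and 10.9 ± 0.713 CPM with GFP. PCDH1, a protocadherin, had 58.0 ± 2.46 CPM with DUX4, 9.79 ± 0.544 CPM with DUXC and 23.1 ± 0.0844 CPM with GFP. CLDN6, a claudin of embryonic epithelia, had 12.1 ± 0.853 CPM with DUX4, 1.24 ± 0.284 CPM with DUXC and 3.48 ± 0.216 CPM with GFP. CADM3, an adhesion molecule of neurons, had 5.78 ± 0.212 CPM with DUX4, 0.651 ± 0.209 CPM with DUXC and 1.37 ± 0.0355 CPM with GFP. MFAP3L, a membrane protein, had 5.86 ± 0.692 CPM with DUX4, 1.03 ± 0.126 CPM with DUXC and 2.57 ± 0.514 CPM with GFP.

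A second group of 7 genes acts in metabolism, translation or the response to stress, with DUX4 means 2.03 to 3.76 times the GFP means and DUXC means 2.19- to 3.23-fold below them. HMOX1 encodes heme oxygenase 1, which breaks heme down to biliverdin, iron and carbon monoxide and is induced by oxidants. It had 2080, 2027 and 1862 CPM with DUX4, 237, 240.4 and 229 CPM with DUXC and 742, 777 and 767 CPM with GFP. Its DUX4 mean was 2.61 times the GFP mean and its DUXC mean 3.23-fold below.

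Genes that act beside heme oxygenase 1 were looked up as well. The constitutive HMOX2 fell by 0.15 with DUX4 and by 0.28 with DUXC on the log2 scale (edgeR adjusted p = 0.00446 and 5.76e-07). The biliverdin reductases BLVRA and BLVRB each fell by 0.31 on the log2 scale with DUX4 (edgeR adjusted p = 0.000800 and 1.70e-06) and fell by 0.74 and 0.71 with DUXC (edgeR adjusted p = 8.18e-11 and 5.32e-16). BACH1, a repressor of HMOX1, averaged 72.2 ± 2.25 CPM with DUX4, 140.4 ± 4.51 CPM with DUXC and 66.4 ± 1.82 CPM with GFP. It rose with DUXC by 0.95 on the log2 scale (edgeR adjusted p = 4.72e-29). With DUX4 its log2 fold change was 0.10 (edgeR adjusted p = 0.0166). That call ended when DUX4 replicate 1 (0.0934) or GFP replicate 3 (0.0826) was left out.

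HMOX1 is also a target of NRF2, the factor that drives antioxidant genes. Of the 28 other tested genes of the NRF2 and antioxidant list, 8 rose and 13 fell with DUX4 (median log2 fold change -0.05), and 5 rose and 23 fell with DUXC, with a median of -0.72. Over all 15956 tested genes the medians of the fitted log2 fold changes were 0.00 with DUX4 and -0.03 with DUXC. TXN, thioredoxin, rose with DUX4 by 0.48 and fell by 0.59 with DUXC, and PRDX1, a peroxiredoxin, rose with DUX4 by 0.50 and fell by 0.63 with DUXC on the log2 scale, the largest of these adjusted p-values in edgeR being 3.32e-19. The glutathione peroxidase GPX3 fell with both transgenes, with log2 fold changes of -2.37 with DUX4 and -1.79 with DUXC (edgeR adjusted p = 3.60e-38 and 1.36e-34). TKT, transketolase of the pentose phosphate path, rose with both, by 0.86 with DUX4 and 0.55 with DUXC (edgeR adjusted p = 1.18e-26 and 2.42e-19).

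**Figure D2:**
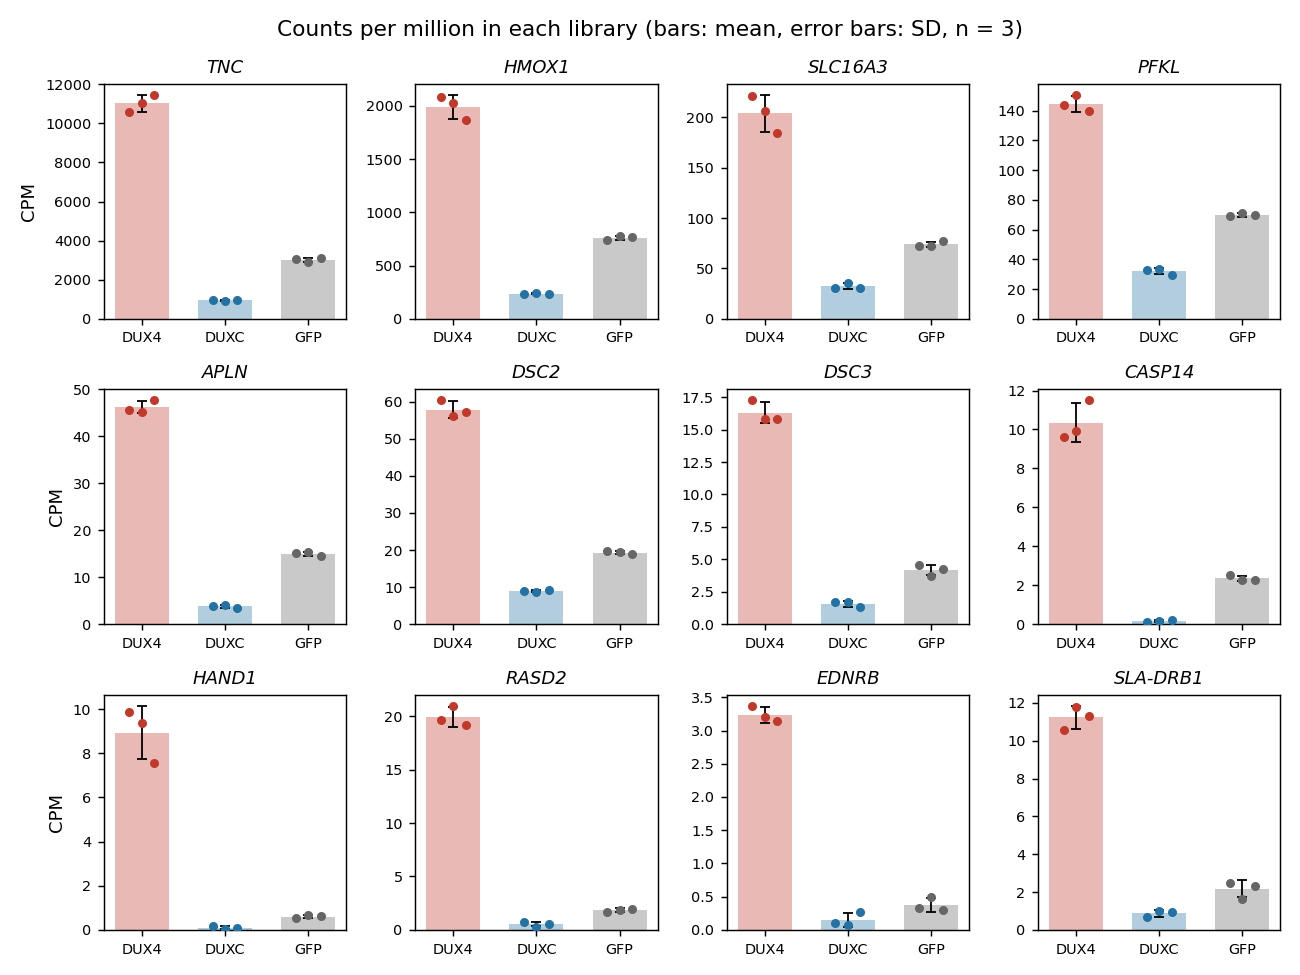
CPM of 12 of the 42 genes in every library, with DUX4 left, DUXC in the middle and GFP right; bars are group means, error bars SD of 3 libraries, points single libraries, and each panel has its own linear axis from 0. TNC stands near 11026 CPM with DUX4, 949 CPM with DUXC and 3025 CPM with GFP. CASP14, HAND1, RASD2 and EDNRB are close to 0 with DUXC. HAND1 and EDNRB are also low with GFP, at 0.595 CPM for HAND1 and 0.375 CPM for EDNRB.

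PFKL acts in glycolysis and SLC16A3 in the export of lactate. PFKL, the liver form of phosphofructokinase (chr13:207167287-207191688), had 144, 151 and 140.0 CPM with DUX4, 32.8, 33.4 and 29.6 CPM with DUXC and 69.0, 71.2 and 69.8 CPM with GFP. SLC16A3, the lactate exporter MCT4 (chr12:796882-807480), had 221, 206 and 184 CPM with DUX4, 30.4, 35.8 and 30.7 CPM with DUXC and 72.5, 72.7 and 77.0 CPM with GFP. The DUX4 mean of PFKL was 2.07 times and that of SLC16A3 2.75 times the GFP mean, and their DUXC means were 2.19-fold and 2.29-fold below it.

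Related genes of glycolysis and lactate transport did not all move alike. LDHA, which makes lactate, rose with DUX4 by 0.93 ± 0.029 (SE) and fell by 1.38 ± 0.029 (SE) with DUXC on the log2 scale (edgeR adjusted p = 1.47e-31 and 6.08e-39). PFKP, the platelet form of phosphofructokinase, rose with DUX4 by 0.62 and fell by 0.54 with DUXC (edgeR adjusted p = 2.40e-21 and 4.52e-19). The muscle form PFKM had a log2 fold change of -0.01 with DUX4 (edgeR adjusted p = 0.908) and rose by 0.49 with DUXC (edgeR adjusted p = 1.15e-17). BSG, the chaperone of MCT4, rose with DUX4 by 0.30 and fell by 0.88 with DUXC (edgeR adjusted p = 2.42e-11 and 4.79e-28). SLC16A1, the related transporter MCT1, rose with both, by 0.17 with DUX4 and 0.93 with DUXC (edgeR adjusted p = 5.14e-06 and 2.25e-30).

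Of 28 glycolysis and hypoxia genes, none of them in the set, 23 rose and 2 fell with DUX4 (median log2 fold change 0.90). With DUXC 7 of them rose and 19 fell, with a median of -0.83. Genes of the unfolded protein and amino acid stress response, also outside the set, rose in 20 of 26 and fell in 5 with DUX4, with a median of 0.39, and rose in 7 and fell in 18 with DUXC, with a median of -0.43. These lists are a selection from the 41 examined, and others had medians in other directions. DNA replication and S phase had 2.20 with DUX4 and 0.64 with DUXC, and heat shock and chaperones 0.28 and 0.26. The zinc finger ZNF family had -0.17 with DUX4 and 0.34 with DUXC. Endothelial markers, at 0.43 with DUX4 and -0.15 with DUXC, had the same directions as the glycolysis and stress lists. Lists of matrix and adhesion genes, also examined, had medians under 0 in both comparisons. Of 26 fibroblast and matrix genes, 5 rose and 21 fell with DUX4 (median -0.64), and 4 rose and 20 fell with DUXC (median -1.08). Of 35 collagens, 11 rose and 17 fell with DUX4 (median -0.24), and 14 rose and 19 fell with DUXC (median -0.61). Of 43 integrins, laminins and adhesion genes, 18 rose and 21 fell with DUX4 (median -0.15), and 10 rose and 26 fell with DUXC (median -0.49). Both comparisons use the same GFP libraries, so the sides are not independent.

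CTH, EEF1A2, SLC2A5 and STC2 complete this group. CTH, the enzyme that makes cysteine from cystathionine, had 124 ± 0.456 CPM with DUX4, 25.7 ± 0.767 CPM with DUXC and 61.1 ± 0.621 CPM with GFP. CBS, the enzyme before it in the pathway, fell by 0.14 with DUX4 (edgeR adjusted p = 0.00498, which became 0.0882 without GFP replicate 2) and by 0.85 with DUXC (edgeR adjusted p = 1.45e-21) on the log2 scale. EEF1A2, an elongation factor of muscle and neurons (chr17:62517811-62526379), had 243, 258 and 253 CPM with DUX4, 29.7, 29.8 and 28.5 CPM with DUXC and 78.0, 80.5 and 79.8 CPM with GFP. Its broadly used counterpart EEF1A1 fell with both transgenes, with log2 fold changes of -0.25 with DUX4 and -0.49 with DUXC (edgeR adjusted p = 1.84e-10 and 1.17e-20).

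SLC2A5, the fructose transporter GLUT5, had 39.4 ± 0.741 CPM with DUX4, 3.89 ± 0.509 CPM with DUXC and 10.5 ± 0.358 CPM with GFP. The glucose transporter SLC2A1 rose with DUX4 by 1.10 and fell by 0.82 with DUXC on the log2 scale, while SLC2A3 rose with both, by 1.68 with DUX4 and 2.88 with DUXC; the largest of these adjusted p-values in edgeR was 4.02e-27. STC2, a secreted glycoprotein that restrains the protease of IGF binding proteins, had 86.5 ± 0.912 CPM with DUX4, 13.3 ± 0.741 CPM with DUXC and 37.8 ± 0.525 CPM with GFP. Its relative STC1 rose with both, by 2.88 with DUX4 and 1.15 with DUXC (edgeR adjusted p = 1.16e-27 and 1.27e-11).

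STC2 belongs to the IGF, insulin and PDGF list. Of its 19 other tested genes, 3 rose and 12 fell with DUX4 (median log2 fold change -0.66), and 4 rose and 12 fell with DUXC (median -0.71). IGF1 fell with log2 fold changes of -5.42 with DUX4 and -3.12 with DUXC, IGFBP4 with -2.12 with DUX4 and -2.06 with DUXC, and PDGFD with -1.13 with DUX4 and -0.37 with DUXC, the largest adjusted p in edgeR being 9.06e-11.

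Of the transport genes outside metabolism, SLC1A6 differed most. It encodes a glutamate transporter of neurons, lies near CASP14 (chr2:62601763-62623597), and had 16.4, 17.7 and 15.6 CPM with DUX4, 1.04, 0.821 and 0.832 CPM with DUXC and 2.83, 2.65 and 2.86 CPM with GFP. Its DUX4 mean was 5.96 times the GFP mean and its DUXC mean 3.10-fold below.

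NKAIN3, named for its interaction with the sodium pump, had 4.81 ± 0.259 CPM with DUX4, 0.335 ± 0.112 CPM with DUXC and 1.02 ± 0.139 CPM with GFP. CUBN encodes cubilin, an endocytic receptor for vitamin B12 bound to intrinsic factor, and had 17.3 ± 0.792 CPM with DUX4, 4.02 ± 0.0256 CPM with DUXC and 8.23 ± 1.20 CPM with GFP. Its membrane partner AMN had 1 count over the DUX4 libraries, 1 over the DUXC libraries and 0 over the GFP libraries. The co-receptor LRP2 rose with DUXC by 2.91 on the log2 scale (edgeR adjusted p = 4.19e-20), the side opposite to CUBN, and had a log2 fold change of 0.34 with DUX4 (edgeR adjusted p = 0.226). Of 277 other tested SLC family genes, 84 rose and 91 fell with DUX4 and 109 rose and 122 fell with DUXC, with medians of 0.00 with DUX4 and -0.09 with DUXC. Among them the copper transporter SLC31A1 rose with both transgenes, by 3.01 with DUX4 and 6.05 with DUXC, and the amino acid transporter SLC43A2 fell by 2.49 with DUX4 and rose by 1.16 with DUXC on the log2 scale, the largest adjusted p in edgeR being 3.86e-30.

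The 5 ligands and receptors include APLN, the peptide ligand of the apelin receptor and a gene induced by hypoxia (chrX:106236746-106246563). APLN had 45.7, 45.2 and 47.6 CPM with DUX4, 3.85, 4.18 and 3.44 CPM with DUXC and 15.2, 15.3 and 14.6 CPM with GFP, 3.07 times the GFP mean with DUX4 and 3.93-fold below it with DUXC. Its receptor gene APLNR had 0 counts with DUX4, 8 with DUXC and 0 with GFP. The receptor was thus at the detection limit in the DUX4 and GFP libraries.

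EDNRB, a receptor for endothelins (chr11:50073300-50102879), had 3.37, 3.20 and 3.14 CPM with DUX4, 0.109, 0.0770 and 0.268 CPM with DUXC and 0.330, 0.5003 and 0.296 CPM with GFP. The DUX4 libraries stood far above the rest, whereas DUXC library 3 nearly reached the lowest GFP library. The DUXC side of this gene rests on 17 counts over the DUXC libraries and 46 over the GFP libraries. Its log2 ratio of DUXC to GFP was -1.31, and -2.01 without DUXC replicate 3. EDNRA, the other endothelin receptor, fell with both transgenes, by 1.71 with DUX4 and by 1.33 with DUXC on the log2 scale (edgeR adjusted p = 1.74e-29 and 3.63e-26). The ligand gene EDN1 rose with both, by 1.64 with DUX4 and 4.77 with DUXC (edgeR adjusted p = 2.81e-11 and 9.16e-33).

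P2RY6, a receptor for UDP (chr9:7708452-7759721), had 6.09, 6.24 and 6.45 CPM with DUX4, 0.164, 0.334 and 0.295 CPM with DUXC and 0.826, 0.600 and 0.690 CPM with GFP. Its DUX4 mean was 8.87 times the GFP mean. ADGRG1, an adhesion receptor for collagen III, had 54.9 ± 3.22 CPM with DUX4, 6.76 ± 0.382 CPM with DUXC and 20.5 ± 1.00 CPM with GFP. PDCD1, the inhibitory receptor PD-1 of lymphocytes, was the scarcest of the set with DUX4, at 1.39 ± 0.0766 CPM with DUX4, 0.241 ± 0.0980 CPM with DUXC and 0.585 ± 0.0853 CPM with GFP. Of its ligands with DUXC, CD274 rose by 1.54 and PDCD1LG2 by 5.42 on the log2 scale (edgeR adjusted p = 8.28e-16 and 7.39e-19). With DUX4, CD274 fell by 0.41 (edgeR adjusted p = 0.0139), a call lost with limma-voom (0.0515) and when DUX4 replicate 2 (0.0660), GFP replicate 1 (0.0805) or GFP replicate 2 (0.0746) was left out. PDCD1LG2 had 3 counts with DUX4, 273 with DUXC and 6 with GFP, and did not pass with DUX4 (edgeR adjusted p = 0.391).

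The immune marker list was set beside PDCD1 and the class II genes below. Its 19 markers summed to 15.5 to 17.5 CPM with DUX4, 25.0 to 26.8 CPM with DUXC and 17.3 to 19.7 CPM with GFP, with 3 markers at 0 with DUX4, 0 with DUXC and 6 with GFP. Of its 8 tested markers, 3 rose and 2 fell with DUX4, and 4 rose and 2 fell with DUXC. The tested markers named next rose with DUX4 and do not stand for the whole list. PTPRC, the pan-leukocyte marker CD45, had 0 counts with DUX4, 16 with DUXC and 0 with GFP. The myeloid factor SPI1 had 172 counts with DUX4, 107 with DUXC and 101 with GFP, and rose with DUX4 by 0.71 on the log2 scale (edgeR adjusted p = 0.00309). With DUXC its log2 fold change was 0.08 (edgeR adjusted p = 0.750). The macrophage marker CD68 had 209 counts with DUX4, 266 with DUXC and 113 with GFP, and rose with both, by 0.83 with DUX4 and 1.23 with DUXC (edgeR adjusted p = 9.27e-05 and 1.51e-08). Their part in the values of PDCD1 and the class II genes was not tested.

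Of the genes of small GTPase and cytohesin signalling, RASD2 stood furthest from GFP with DUX4. RASD2, a Ras-like GTPase of the striatum, had 19.7, 21.0 and 19.2 CPM with DUX4, 0.711, 0.308 and 0.591 CPM with DUXC and 1.70, 1.901 and 1.99 CPM with GFP, 10.7 times the GFP mean with DUX4 and 3.48-fold below it with DUXC. CDC42EP3, an effector of the GTPase CDC42 (chr3:102537662-102567669), had 267, 255 and 246 CPM with DUX4, 50.9, 49.2 and 49.3 CPM with DUXC and 122, 122 and 126 CPM with GFP. CYTIP, which binds cytohesins in lymphocytes, had 38.3 ± 0.907 CPM with DUX4, 3.90 ± 0.209 CPM with DUXC and 9.07 ± 0.437 CPM with GFP. ARAP3, which switches off ARF GTPases, had 14.4 ± 0.0738 CPM with DUX4, 3.10 ± 0.153 CPM with DUXC and 6.65 ± 0.282 CPM with GFP.

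HAND1, a basic helix-loop-helix factor of the heart and the trophoblast (chr16:68679977-68683346), had the widest separation of the set. It had 9.85, 9.39 and 7.55 CPM with DUX4, 0.164, 0.0513 and 0.0805 CPM with DUXC and 0.519, 0.650 and 0.616 CPM with GFP, from 1124 counts over the DUX4 libraries, 11 over the DUXC libraries and 73 over the GFP libraries. The DUX4 mean was 15.0 times the GFP mean and the DUXC mean 6.03-fold below it. Its paralogue HAND2 averaged 36.5 ± 1.95 CPM with DUX4, 10.6 ± 0.885 CPM with DUXC and 30.6 ± 1.27 CPM with GFP. HAND2 rose with DUX4 by 0.23 and fell by 1.65 with DUXC on the log2 scale (edgeR adjusted p = 6.39e-05 and 2.91e-29).

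CASP14, a caspase of the differentiating epidermis (chr2:62522294-62531594), was the most reduced with DUXC. It had 9.61, 9.93 and 11.5 CPM with DUX4, 0.109, 0.154 and 0.242 CPM with DUXC and 2.53, 2.30 and 2.27 CPM with GFP, 4.38 times the GFP mean with DUX4 and 14.0-fold below it with DUXC, where 19 counts remained. TOX2, an HMG-box factor (chr17:46433005-46577076), had 4.97, 5.47 and 5.72 CPM with DUX4, 0.492, 0.385 and 0.564 CPM with DUXC and 1.02, 1.28 and 1.08 CPM with GFP. FBXL21, a subunit of ubiquitin ligases that acts on clock proteins in mouse, had 16.9 ± 0.405 CPM with DUX4, 3.59 ± 0.148 CPM with DUXC and 7.66 ± 0.559 CPM with GFP.

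The set holds 3 loci of the class II region of the major histocompatibility complex on chromosome 7. SLA-DRB1 encodes the beta chain of the DR molecule, which presents peptides to T cells (chr7:24901386-24914016). It had 10.6, 11.8 and 11.3 CPM with DUX4, 0.683, 1.00 and 0.940 CPM with DUXC and 2.50, 1.65 and 2.34 CPM with GFP, 5.19 times the GFP mean with DUX4 and 2.47-fold below it with DUXC. LOC106504372 had 9.59 ± 0.876 CPM with DUX4, 0.994 ± 0.0386 CPM with DUXC and 2.05 ± 0.225 CPM with GFP, and LOC100153139 had 2.93 ± 0.161 CPM with DUX4, 0.352 ± 0.118 CPM with DUXC and 0.713 ± 0.151 CPM with GFP. RefSeq lists DRB1 among the synonyms of LOC106504372, whose span of 283 bases lies within SLA-DRB5, so reads may be shared between these copies and their split is uncertain.

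Other class II genes were looked up beside SLA-DRB1. SLA-DRA, the alpha chain that pairs with a DR beta chain, had 1 count over the DUX4 libraries, 30 over the DUXC libraries and 0 over the GFP libraries, and SLA-DQA1 had 2 counts with DUX4, 22 with DUXC and 1 with GFP. SLA-DQB1, a beta chain of the DQ molecule, fell with both transgenes, by 0.44 with DUX4 and by 1.14 with DUXC on the log2 scale (edgeR adjusted p = 0.000669 and 1.73e-11). The invariant chain CD74 rose with DUXC by 1.61 (edgeR adjusted p = 4.83e-05) and had a log2 fold change of 0.39 with DUX4 (edgeR adjusted p = 0.424).

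The remaining genes have no role given here. TMEM200C, a membrane protein gene (chr6:101211852-101217574), had 9.44, 8.73 and 8.76 CPM with DUX4, 1.45, 1.10 and 1.40 CPM with DUXC and 4.72, 4.65 and 4.04 CPM with GFP, at the edge of the DUX4 threshold with a ratio of 2.01. FAM25A (chr14:87940256-87943535) had 2.91, 2.63 and 3.04 CPM with DUX4, 0.0547, 0.0513 and 0.295 CPM with DUXC and 0.307, 0.375 and 0.369 CPM with GFP. DUXC library 3 of FAM25A lay just under the GFP libraries and decided its DUXC value: the log2 ratio of DUXC to GFP was -1.39, and -2.73 without that library. LOC100513671 had 3.01 ± 0.363 CPM with DUX4, 0.0706 ± 0.0404 CPM with DUXC and 0.676 ± 0.0337 CPM with GFP, and LOC100737961 had 6.93 ± 0.952 CPM with DUX4, 0.627 ± 0.159 CPM with DUXC and 1.54 ± 0.0540 CPM with GFP.

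Of the placed genes, 9 lay within 200 kb of another gene of the set, in 4 loci. Genes within 150 kb of these loci were taken as neighbours. At chr2:62522294-62623597, CASP14 and SLC1A6 span 101 kb, and the 2 genes between them, CCDC105 and LOC106508313, had 4 and 2 counts over the DUX4 libraries, 0 and 1 over the DUXC libraries and 1 and 0 over the GFP libraries. Beside them LOC100736663 had 32 counts with DUX4, 0 with DUXC and 1 with GFP, too few to be tested. Of 3 tested neighbours, NOTCH3 fell by 2.47 with DUX4 and by 2.79 with DUXC on the log2 scale, ILVBL fell by 0.16 with DUX4 and by 0.74 with DUXC, and SYDE1 rose with DUX4 by 0.39 and fell by 0.61 with DUXC, the largest adjusted p in edgeR being 0.000763.

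ARAP3 and PCDH1 span 197 kb at chr2:143304076-143501204 with 9 tested neighbours, of which 2 rose and 5 fell with DUX4, and none rose and 7 fell with DUXC. DIAPH1 rose with DUX4 by 0.17 and fell by 0.32 with DUXC, and KIAA0141 rose with DUX4 by 0.29 and fell by 0.21 with DUXC on the log2 scale, while FCHSD1 fell with both, by 0.50 with DUX4 and by 0.60 with DUXC; the largest adjusted p in edgeR was 0.000183. RNF14 fell by 0.16 with DUX4 and by 0.57 with DUXC, GNPDA1 by 0.20 with DUX4 and by 0.53 with DUXC, and LOC100736974 by 0.20 with DUX4 and by 0.99 with DUXC, with a largest adjusted p in edgeR of 0.00132. DSC3 and DSC2 span 105 kb at chr6:114916759-115021332, and neither of the 2 other genes near them had enough counts to be tested. The class II genes span 118 kb at chr7:24882212-25000539 with 11 tested neighbours, of which 1 rose and 6 fell with DUX4, and 6 rose and 3 fell with DUXC. Among them were TAP1, which fell by 0.28 with DUX4 and rose with DUXC by 0.68 (edgeR adjusted p = 2.69e-07 and 2.48e-20), and SLA-DOB, which had a log2 fold change of -0.18 with DUX4 (edgeR adjusted p = 0.653) and rose with DUXC by 2.95 (edgeR adjusted p = 5.75e-17). The neighbours named here were chosen after their values were seen.

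**Figure D3:**
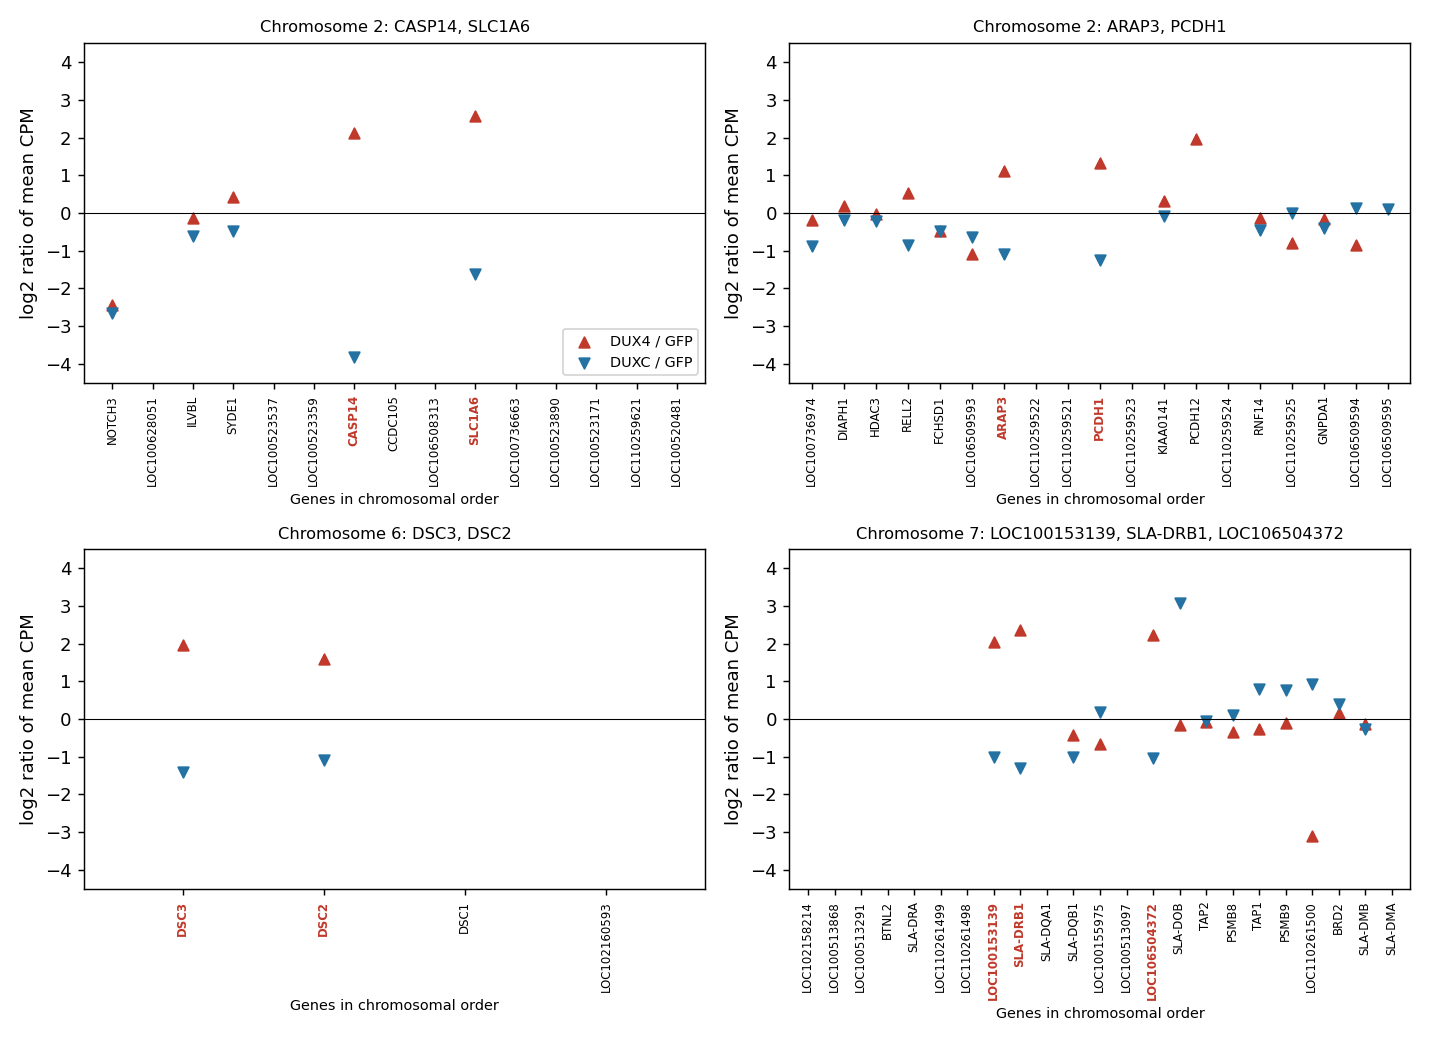
Log2 ratio of group mean CPM for the genes of 4 loci in chromosomal order, with the set's genes in bold red; upward triangles are DUX4 over GFP and downward triangles DUXC over GFP, and a ratio with a group at or under 3 counts has no point. At CASP14 and SLC1A6 and at the DSC genes, neighbours have few or no points, and in the class II region SLA-DOB lies on the opposite side with DUXC.

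The genes of the set were looked up in the pathway and marker lists examined. Of 41 lists, 5 hold a gene of the set, and 33 of the 42 genes are in none. The share of all genes that are in a list was not computed, so these counts do not show whether the set is in lists more or less often. CLDN6 is in the list of connexins, pannexins and claudins, of which 9 of 18 other tested genes rose and 4 fell with DUX4 (median log2 fold change 0.29), and 8 rose and 8 fell with DUXC (median -0.06). CLDN1, a claudin of tight junctions, rose with DUX4 by 1.62 and fell by 0.63 with DUXC, whereas the connexin GJA1 fell with both, by 1.20 with DUX4 and by 1.51 with DUXC; the largest adjusted p in edgeR was 3.57e-08. CLDN12 rose with both, by 0.63 with DUX4 and 0.69 with DUXC (edgeR adjusted p = 1.31e-16 and 1.81e-18). Of 16 other tested epithelial markers, 5 rose and 3 fell with DUX4 (median 0.33), and 8 rose and 5 fell with DUXC (median 1.39), and DESeq2 called 3 higher with DUX4 in place of 5. CLDN4 fell by 1.18 with DUX4 and by 0.66 with DUXC on the log2 scale (edgeR adjusted p = 8.58e-12 and 1.27e-06). With DUX4, the epithelial transcription factor OVOL1 rose by 2.19 and the keratin KRT19 fell by 2.19 (edgeR adjusted p = 1.16e-07 and 4.21e-07), and with DUXC neither passed, at log2 fold changes of 0.50 for OVOL1 (edgeR adjusted p = 0.274) and -0.45 for KRT19 (edgeR adjusted p = 0.122). LOR, the gene of the epidermal protein loricrin, had 27 counts with DUX4, 36 with DUXC and 0 with GFP.

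**Figure D4:**
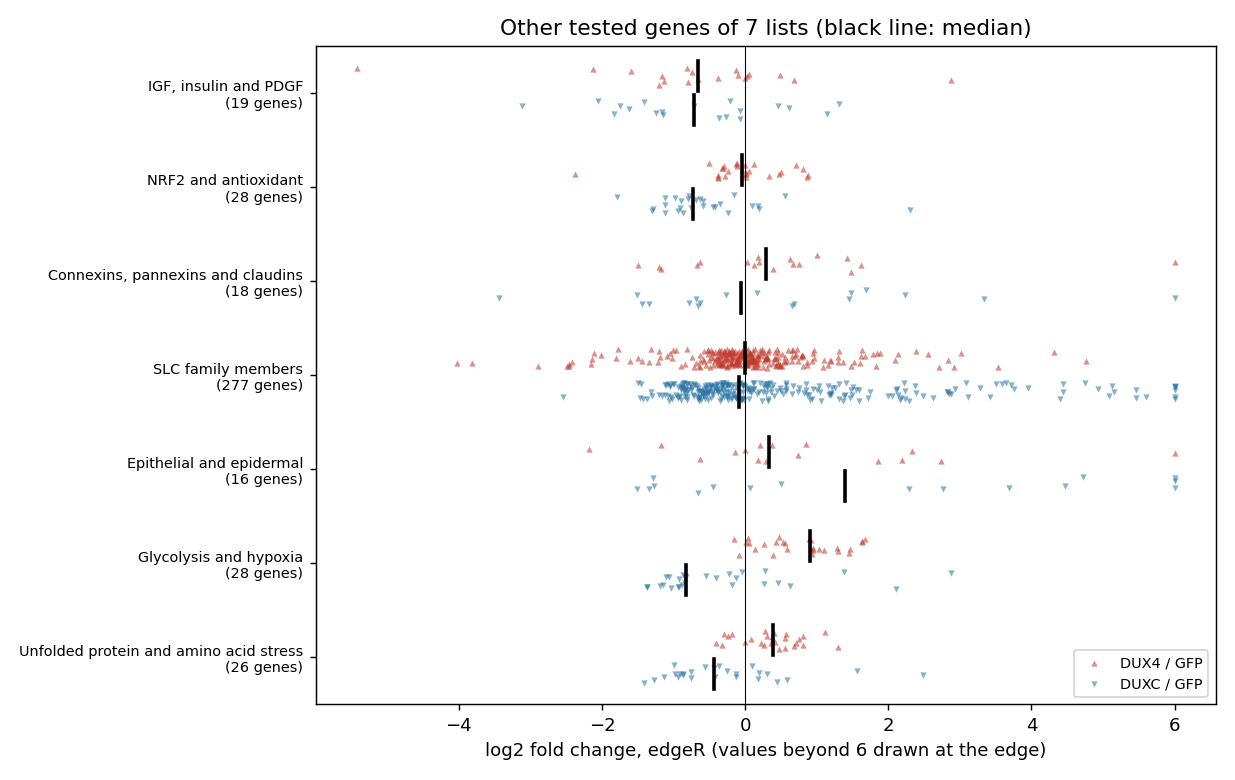
Log2 fold changes in edgeR of the tested genes of 7 lists, without the 42 genes; red upward triangles are DUX4 over GFP and blue downward triangles DUXC over GFP, the black lines are medians, and values beyond 6 are drawn at the edge. Glycolysis and hypoxia has medians of 0.90 with DUX4 and -0.83 with DUXC, while the NRF2 list has medians of -0.05 with DUX4 and -0.72 with DUXC.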

How the data were processed

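The deposited table holds unscaled read counts for each gene. Per the submitters' processing notes, CASAVA 1.9, Trim Galore and featureCounts were used with genome build Sscrofa11.1, and per the file headers reads were aligned with Subread. The labels name a stranded kit for mRNA. No source used here gives the annotation release, the strand setting or the other versions, so the reads of genes that overlap another gene, as 10 of the 40 placed genes do, may be mixed. All 42 genes, and 26773 of 27339 genes in the table, matched RefSeq of the same build by symbol, which gave positions.

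Total counts were 36580573 to 44420895 per library, and same-group libraries differed by more than sampling noise (chi-square per degree of freedom 2.71 to 19.3), so none was treated as a repeat deposit of another. The genes were taken by CPM of the column totals. All 9 libraries were fitted together in edgeR 4.0.16 (R 4.3.3) with TMM factors, filterByExpr by group, which left 15956 genes, and the robust quasi-likelihood F test. Each comparison had its own Benjamini-Hochberg adjustment, with calls at adjusted p under 0.05, and the common dispersion was 0.00114. The fit was also run on simulated counts, with few changed genes and the same dispersion for every gene. That setting differs from these data, so the run adds no support to the calls. Alternatives were other scalings, thresholds and filters, DESeq2 1.42.0, limma-voom (limma 3.58.1), the replicate block and leaving out each library.

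The genes, the 41 lists and the tests were chosen with earlier results of these data known. Genes with a symbol of their own are named, except for 1 that is not reported here. Values in every library are given for the 8 with the highest mean CPM with DUX4, the 8 with the highest ratio of DUX4 to GFP and the 8 with the lowest ratio of DUXC to GFP, which share some genes, and for DSC2 and DSC3, added after their values were seen. From each list that holds a gene of the set, up to 4 others by smallest p with DUX4 were taken, leaving out any not reported here. Partners, neighbours and roles were picked after the values were seen. Same-numbered libraries were not treated as pairs in the main fit. Their residuals correlated at -0.0258 to 0.0318, which cannot exclude a shared batch that counting noise hides.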

Additional observations from a re-analysis of the deposited data

How the results depend on the processing

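The set, of 42 genes, held 41 to 47 when a library was left out, 48 with TMM and 47 with DESeq2 scaling, 49 with a minimum of 0.5 CPM, 51 with none and 36 with 5 CPM, 42 with the overlap condition dropped, and 58 when taken by edgeR calls past 2-fold. It held 188 genes at 1.5-fold and 8 at 3-fold in each direction (TNC, APLN, RASD2, SLC1A6, CASP14, HAND1, NKAIN3 and LOC100513671), since these settings move the thresholds themselves. CTH and TMEM200C left it with TMM and with edgeR calls, and leaving out a library removed at most 3 genes, among CUBN, CADM3, EDNRB, PDCD1, TMEM200C, LOC106504372 and LOC100153139. None of the ratios of the 42 genes changed sign under the alternatives run. The 2-fold and no-overlap conditions of the rule largely fixed this in advance, so it adds no support. A pseudocount of 0.5 CPM moved 29 ratios towards 0 by more than the spread between libraries, by up to 2.22 on the log2 scale. For 15603 tested genes with counts in both groups, the median log2 ratio of mean CPM, DUXC to GFP, was -0.05 with TMM scaling. It was 0.07 with column totals, so ratios with DUXC carry that shift. The replicate block called 10272 genes for DUX4 against GFP and 13124 for DUXC against GFP, against 10341 and 13165 without it, and 4 of 9 libraries correlated best with their own number. Over the alternatives the counts of calls were 9707 to 10585 for DUX4 and 12642 to 14888 for DUXC. Depth limits genes under 1 CPM with DUXC, where 16 of the set lie.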
